A study of Mus musculus with 8 samples.

Results

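The small leucine-rich proteoglycans (SLRPs) were examined in RNA-seq libraries from cultured mouse heart fibroblasts, cells that make the collagen matrix of this organ. The 9 members are Dcn, Bgn, Lum, Fmod, Ogn, Omd, Prelp, Aspn and Podn. They were taken from the deposited table by gene symbol, 9 of 22274 genes. There were 4 libraries labelled GFP and 4 labelled OEIRF7, all from heart fibroblasts that had received TGF-β, a cytokine that turns fibroblasts into contractile, matrix-secreting myofibroblasts. According to the study's methods, the control cells carried an adenoviral empty vector and the other cells an adenovirus with FLAG-tagged IRF7, whose listed construct holds the human gene behind the CMV promoter. The deposited design text speaks of adeno-associated virus. All groups received TGF-β, so no untreated cells were compared. The strain, age and number of the mice behind each culture are not given for these libraries in the sources used here, so p-values measure the spread between these libraries, which may be partly technical.

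SLRPs are secreted proteins with a core of leucine-rich repeats, and many carry chondroitin, dermatan or keratan sulfate chains. They bind fibrillar collagens and set the diameter and spacing of the fibrils, and several bind growth factors of the TGF-β family. Biglycan and decorin are also ligands of cell surface receptors. In the heart they are products of fibroblasts, and they accumulate in scars after infarction and under pressure overload.

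Total counts lay between 24454801 and 28658826 per library. The fibroblast label was compared with marker genes. Col1a1, Col1a2 and Vim were abundant, with means of 2548 CPM (counts scaled to a common library size) or more in either group, while 7 of 8 markers of heart muscle cells had at most 13 counts in any library. The other, Tnnt2, had 175 to 331 counts in every library. The remaining fibroblast markers were less abundant, given here as GFP and OEIRF7 means in CPM. Ddr2 had 452 and 379, Pdgfra 122 and 145, Thy1 65.3 and 61.9, and Tcf21 58.3 and 23.1. The macrophage marker Lyz2 had 202 and 235, and the endothelial marker Cdh5 had 100 and 92.9. RNA of markers of other cell types was thus present, and the purity of the cultures was not tested. Mouse Irf7 itself had 2272 to 3680 counts in the GFP libraries and 380 to 421 in the OEIRF7 libraries. It fell by 2.96 on the log2 scale (SE 0.12, adjusted p = 7.7e-11, edgeR). Reads were counted on mouse genes only. If the transgene was human, these values do not check the labels, and if it was murine the fall goes against them. Every direction here is between the libraries labelled OEIRF7 and those labelled GFP.

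All 9 SLRPs had enough counts to be tested. By edgeR's quasi-likelihood test (adjusted p under 0.05) 7 were lower in the OEIRF7 libraries and 0 were higher. Among the 13533 genes tested 29.9% were lower and 29.0% higher, 58.9% in either direction. The members not past the threshold were Dcn and Aspn. In 4 of the 7, namely Fmod, Podn, Prelp and Ogn, the log2 fold change was also below -1, a line that 3.89% of the genes tested passed. In 6 of the 9 every OEIRF7 library was below every GFP library, against 27.0% of the genes tested, and 53.8% of the genes tested had no overlap in either direction. The median log2 fold change was -0.62 over the 9 members and 0.00 over all genes tested. In bulk RNA, fewer cells that express a gene and less RNA per cell cannot be told apart.

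**Figure D1:**
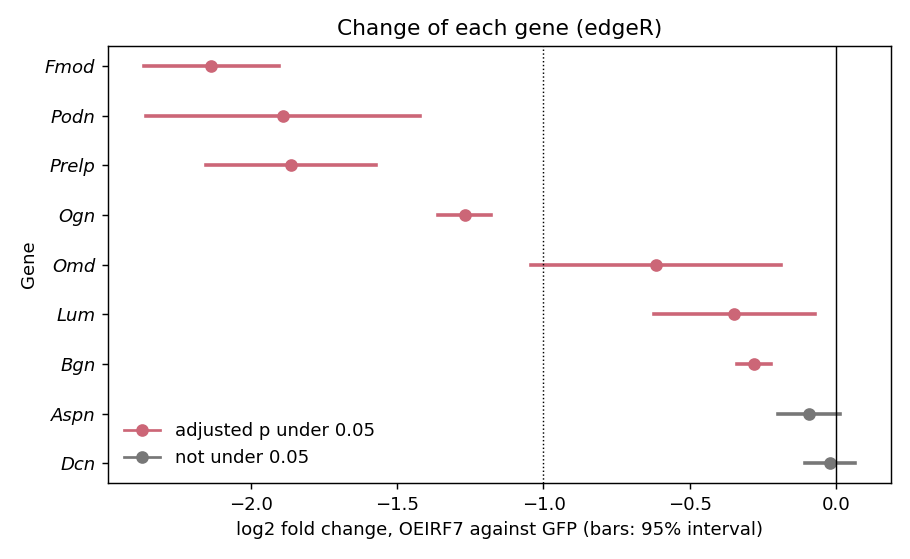
Log2 fold change (x axis) of each of the 9 SLRPs (y axis) in OEIRF7 against GFP libraries, with 4 libraries per group. Points are edgeR estimates, bars are 95% intervals, the solid line marks 0 and the dotted line -1. Fmod, Podn, Prelp and Ogn lie below -1, while the intervals of Dcn and Aspn include 0.

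The levels were compared between genes by the deposited FPKM, which are normalized for transcript length and depth. Bgn stood first in both groups, with 2310 ± 49.4 FPKM in GFP and 1941 ± 55.5 in OEIRF7 libraries (SD, n = 4 per group). It ranked 9 among all genes of the table in the GFP libraries and 12 in the OEIRF7 libraries. Dcn followed with 335 ± 17.9 and 336 ± 15.1 FPKM, so that Bgn was 6.89 times Dcn in the controls and 5.77 times Dcn in the OEIRF7 libraries. In the GFP libraries the order then ran Ogn, Aspn, Prelp, Fmod, Lum, Omd and Podn. Neighbours in this order had ranges that did not overlap, except Aspn (56.6 to 59.8 FPKM) and Prelp (41.4 to 68.0 FPKM). In the OEIRF7 libraries Aspn came before Ogn, the other places were as in the controls, and no neighbours overlapped. Lum, one of the most abundant SLRPs of many connective tissues, had only 5.22 ± 1.11 FPKM in the GFP libraries, and Omd and Podn were near 1 FPKM.

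Summed over the 9 members, the level was 2863 ± 63.0 FPKM in the GFP libraries and 2390 ± 56.1 in the OEIRF7 libraries (SD, n = 4 per group). Bgn held 79.3% to 81.6% of this sum in the GFP libraries and 80.6% to 82.2% in the OEIRF7 libraries. The share of Dcn was 11.3% to 12.5% in GFP and 13.4% to 14.7% in OEIRF7 libraries. Shares of Prelp were 1.87% and 0.628%, those of Fmod 0.851% and 0.236%, and those of Ogn 2.59% and 1.31% in GFP and OEIRF7 libraries (means of 4). These shares are descriptions and were not tested.

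**Figure D2:**
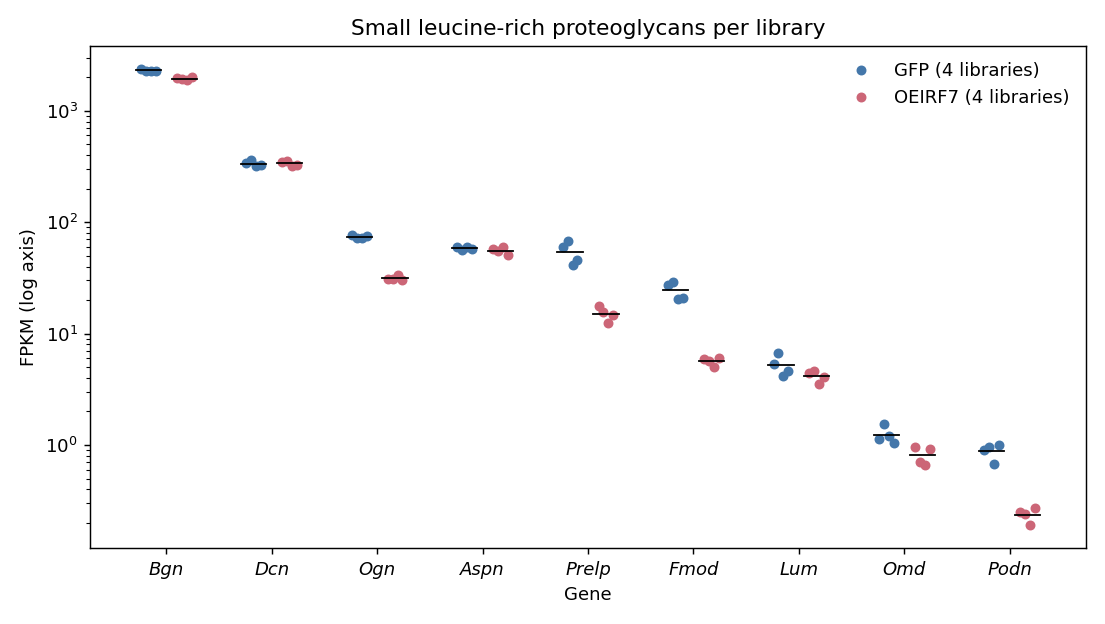
FPKM on a log axis (y) of the 9 SLRPs (x), 1 point per library and a line at the mean of 4 libraries, GFP in blue and OEIRF7 in red. Bgn and Dcn lie above 300 FPKM in each library, and the points of the groups are far apart for Ogn, Prelp, Fmod and Podn.

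Class I holds biglycan, decorin and asporin. Biglycan (Bgn), which carries chondroitin or dermatan sulfate chains and also acts as a ligand of Toll-like receptors, had 5775, 5478, 5554 and 5595 CPM in GFP replicates 1 to 4 and 4639, 4531, 4470 and 4800 in OEIRF7 replicates 1 to 4. The groups did not overlap. Its log2 fold change was -0.28 (SE 0.027, adjusted p = 4.1e-07, edgeR), which leaves 82.3% of the control level. The fall was small in fold. In FPKM it made up most of the drop of the sum over the members.

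Decorin (Dcn), the prototype of the family, binds collagen I and TGF-β and carries a single glycosaminoglycan chain. Its values were 605, 634, 563 and 577 CPM in the GFP libraries and 602, 609, 561 and 571 in the OEIRF7 libraries, and the groups overlapped almost entirely. On the log2 scale the fold change was -0.02 (SE 0.040, adjusted p = 0.67, edgeR), with a 95% interval from -0.11 to 0.06. A change of more than about this size in either direction would lie outside the interval.

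Asporin (Aspn), which has a stretch of aspartate residues in place of a glycosaminoglycan attachment site, binds TGF-β and collagen. It had 140, 132, 139 and 133 CPM in the GFP libraries and 130, 125, 139 and 115 in the OEIRF7 libraries. OEIRF7 replicate 3 was as high as the controls and the groups overlapped. The log2 fold change was -0.09 (SE 0.049, adjusted p = 0.12, edgeR; 95% interval -0.20 to 0.01). Without OEIRF7 replicate 3 the value was -0.14 with an adjusted p of 0.014 (edgeR), and without OEIRF7 replicate 4 it was -0.049 with an adjusted p of 0.36 (edgeR).

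Class II holds fibromodulin, lumican, PRELP and osteomodulin, which as a rule carry keratan sulfate or no sulfated chain. Fibromodulin (Fmod) binds collagen I at a site that lumican also uses, and guides the growth of fibrils. It had 86.2, 90.7, 64.4 and 65.8 CPM in the GFP libraries and 18.2, 17.3, 15.6 and 18.8 in the OEIRF7 libraries. Every control was over 3 times as high as the highest OEIRF7 library. On the log2 scale the fold change was -2.14 (SE 0.11, adjusted p = 5.4e-10, edgeR), the largest fall in the family, and 40 of the genes tested fell further.

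PRELP (Prelp), whose basic end binds heparan sulfate and which links basement membranes to collagen, had 217, 248, 151 and 168 CPM in the GFP libraries. In the OEIRF7 libraries it had 62.9, 55.7, 44.6 and 52.3 CPM. The spread among controls was wide, with a coefficient of variation of 22.9%, yet the groups were far apart. On the log2 scale the fold change was -1.86 (SE 0.14, adjusted p = 2.6e-08, edgeR).

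Lumican (Lum), a regulator of fibril spacing known best from the cornea, had 13.2, 16.6, 10.3 and 11.4 CPM in the GFP libraries and 10.7, 11.1, 8.64 and 9.98 in the OEIRF7 libraries. GFP replicate 3 lay below OEIRF7 replicates 1 and 2, so the groups overlapped. The log2 fold change was -0.35 (SE 0.13, adjusted p = 0.031, edgeR), and an exact permutation test (two-sided, log2 CPM) gave p = 0.11. This call was lost without any one of GFP replicates 1 and 2 and OEIRF7 replicates 3 and 4, and with limma on FPKM. It was kept with DESeq2 (adjusted p = 0.028) and with the replicate number as a block (adjusted p = 0.0024, edgeR). The adjusted p was 0.11 (edgeR) and the value -0.21 without GFP replicate 2.

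Osteomodulin (Omd), an SLRP of mineralized tissue, rested on few reads, with 49, 62, 49 and 44 counts in the GFP libraries and 38, 34, 29 and 35 in the OEIRF7 libraries. In CPM this was 1.99 ± 0.350 against 1.30 ± 0.170 (SD, n = 4 per group), and the groups did not overlap. The log2 fold change was -0.62 (SE 0.20, adjusted p = 0.016, edgeR). Without GFP replicate 2, the highest control, the adjusted p was 0.062 (edgeR) and the value -0.49. On log2(FPKM + 1), which understates changes of low genes, it was -0.30.

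Osteoglycin (Ogn), also called mimecan, is the class III member and a modulator of fibril thickness. It had 201, 185, 186 and 196 CPM in the GFP libraries and 78.2, 77.9, 85.3 and 77.0 in the OEIRF7 libraries. The spread was small in both groups and they did not overlap. The log2 fold change was -1.27 (SE 0.042, adjusted p = 1.2e-11, edgeR), a level of 41.5% of the control.

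Podocan (Podn), of the non-canonical class V, had 73, 75, 50 and 83 counts in the GFP libraries and 20, 22, 14 and 21 in the OEIRF7 libraries. That is 2.73 ± 0.504 against 0.734 ± 0.129 CPM (SD, n = 4 per group). The groups did not overlap, and the log2 fold change was -1.89 (SE 0.22, adjusted p = 3.4e-06, edgeR). On log2(FPKM + 1), a scale that understates changes of low genes, it was -0.61. Podn overlaps Scp2, a gene with 3091 to 3691 counts per library on the same strand, and how shared reads were counted is not stated in the sources used here. Scp2 had a log2 fold change of -0.09 (adjusted p = 0.059, edgeR).

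For the 6 members whose groups did not overlap, an exact permutation test (two-sided, log2 CPM) gave p = 0.029, the smallest that 4 against 4 libraries allow. Groups without overlap always give this value, so the test adds nothing to the lack of overlap.

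Whether members changed unequally was tested by their ratio within a library, which does not depend on scaling. How often other pairs of genes change unequally was not counted, and 53.8% of single genes tested had groups without overlap. Of 7 pairs chosen by class and gene position, 5 had an adjusted p of 0.040 (exact two-sided permutation test, Benjamini-Hochberg over 7 pairs). The log2 ratio of Lum to Fmod, the members with an overlapping collagen site, was -2.57 ± 0.11 in the GFP libraries and -0.79 ± 0.12 in the OEIRF7 libraries (SD, n = 4 per group), a difference of 1.78 (SE 0.08). The ranges of the groups did not overlap.

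The log2 ratio of Dcn to Bgn rose from -3.24 ± 0.09 to -2.98 ± 0.07 (SD, n = 4 per group). Fmod also fell somewhat more than Prelp, with a log2 ratio of -1.34 ± 0.09 in GFP and -1.61 ± 0.15 in OEIRF7 libraries (SD, n = 4 per group). These ranges nearly touched, with a lowest GFP ratio of -1.45 and a highest OEIRF7 ratio of -1.47. The ratio of Ogn to its neighbour Aspn changed sign, from 0.50 ± 0.06 to -0.68 ± 0.07 on the log2 scale (SD, n = 4 per group), and in FPKM too Ogn was the higher in all controls and Aspn in all OEIRF7 libraries. Ogn fell more than Omd, by a log2 difference of -0.69 (SE 0.18). With FPKM in place of CPM these 5 adjusted p were 0.050 to 0.080 by the same exact permutation test, not under the threshold. Each difference moved by less than 0.02. In CPM all 5 had the smallest exact permutation p possible, 0.029. With FPKM Ogn to Omd no longer reached it (adjusted p = 0.080), and the others of the 5 did. Their adjusted p of 0.050 comes from this change in the Benjamini-Hochberg adjustment.

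The ratios of Dcn to Aspn and of Bgn to Aspn did not pass (adjusted p = 0.40 and 0.13, exact permutation test). Their differences were 0.07 (SE 0.08) and -0.19 (SE 0.08) on the log2 scale.

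**Figure D3:**
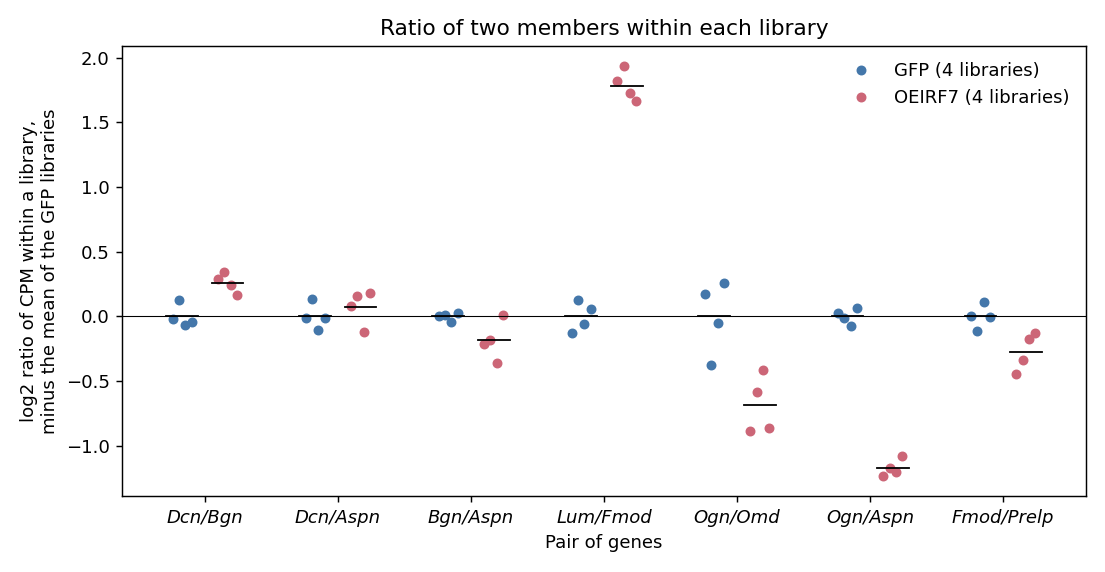
Log2 ratio of the CPM of paired SLRPs within a library (y axis, minus the mean of the GFP libraries) for 7 pairs (x axis), 1 point per library and a line at the mean of 4, GFP in blue and OEIRF7 in red. The ratio of Lum to Fmod is higher and that of Ogn to Aspn lower in each OEIRF7 library, and the points overlap for Dcn to Aspn and Bgn to Aspn.

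Most of these genes lie in clusters (GRCm38). On chromosome 10, Dcn (97479609 to 97518143, plus strand) is followed by Lum (97565128 to 97572703, plus strand), Kera and Epyc. On chromosome 13, Ecm2, Aspn (49544443 to 49567565), Omd (49582462 to 49592822) and Ogn (49608046 to 49624501) follow each other on the plus strand. On chromosome 1, Optc and Prelp (133910304 to 133921414) lie on the minus strand and Fmod (134037254 to 134048277) on the plus strand. Bgn lies on chromosome X (73483602 to 73495933, plus strand) and Podn on chromosome 4 (108014791 to 108096445, minus strand).

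Neighbours did not share 1 size of change. On chromosome 13 the log2 fold changes ran, in gene order, -0.35 for Ecm2 (adjusted p = 0.062, edgeR), -0.09 for Aspn, -0.62 for Omd and -1.27 for Ogn. On chromosome 1 both Prelp and Fmod fell by over 1 on the log2 scale, while Optc, with 2 to 13 counts per library, was too low to test. On chromosome 10 Kera had no count in any library and Epyc had a log2 fold change of -0.35 (adjusted p = 0.38, edgeR). Cenpp spans Aspn, Omd and Ogn on the opposite strand and had 4 to 13 counts per library, few beside those of Aspn and Ogn. Omd had 29 to 62.

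Promoter sequences (RefSeq, GRCm38.p6) were found for 7 of the 9 members, all but Dcn and Lum, with 8 windows of 300 bases. The windows were searched on both strands for 2 copies of GAAA spaced by 2 bases, which interferon regulatory factors bind. The AP-1 motif TGANTCA was searched in the same way. TATAAA, the letters of a TATA box, was searched at any position of the window. Whether a match acts as a TATA box was not tested. Of 32851 windows of the table, 3.44%, 7.81% and 13.6% held these letters. No member window held either of the former, and TATAAA was found in those of Ogn and Aspn. With only 8 windows and such low shares, the lack of a motif says little. The 250 bases before the start are printed 5′ to 3′ for the members with large falls and a promoter in a cluster, and for Aspn as the neighbour of Ogn that was not called. Capitals mark TATAAA or its reverse complement.
Ogn, chr13:49607765-49608014, plus strand: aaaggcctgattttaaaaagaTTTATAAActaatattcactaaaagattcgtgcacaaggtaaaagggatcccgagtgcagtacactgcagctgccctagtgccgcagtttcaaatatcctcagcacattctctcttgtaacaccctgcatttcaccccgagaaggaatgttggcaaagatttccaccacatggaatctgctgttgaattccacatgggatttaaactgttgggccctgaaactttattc
Aspn, chr13:49544193-49544442, plus strand: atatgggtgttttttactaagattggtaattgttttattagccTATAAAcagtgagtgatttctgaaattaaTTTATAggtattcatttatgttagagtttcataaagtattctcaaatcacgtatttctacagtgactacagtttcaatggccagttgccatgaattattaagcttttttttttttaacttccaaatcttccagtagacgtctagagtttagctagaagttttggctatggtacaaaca
Fmod, chr1:134037004-134037253, plus strand: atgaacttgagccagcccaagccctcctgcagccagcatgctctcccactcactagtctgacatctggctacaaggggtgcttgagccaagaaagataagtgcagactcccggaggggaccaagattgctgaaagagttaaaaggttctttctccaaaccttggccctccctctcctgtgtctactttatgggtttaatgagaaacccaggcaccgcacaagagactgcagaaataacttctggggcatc
Prelp, chr1:133921402-133921651, minus strand: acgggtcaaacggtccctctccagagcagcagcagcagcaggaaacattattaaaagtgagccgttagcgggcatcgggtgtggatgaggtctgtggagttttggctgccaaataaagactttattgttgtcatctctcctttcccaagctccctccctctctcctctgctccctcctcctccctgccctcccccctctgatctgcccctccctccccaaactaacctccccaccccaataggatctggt

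Counted from the start, 2 overlapping matches in Ogn lie from -229 to -222, and those in Aspn begin at -207 and -178. The GC content of the windows ranged from 31.0% for Aspn to 77.0% for a window of Podn. The lowest 3, Aspn, Omd and Ogn with 31.0%, 37.7% and 42.3%, are those of the cluster on chromosome 13. Fmod and Prelp, which fell most among members with over 5 CPM, had 51.0% and 55.3%, near the median of all windows, 52.7%.

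By root-mean-square difference of log2 CPM profiles over the 8 libraries, the genes most like Fmod, among 10320 with a mean of at least 5 CPM, were Tmem119, Rtn1 and Adamts5 (0.18 each). Their log2 fold changes were -2.02, -2.18 and -1.99. This is a description of likeness.

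Other SLRP genes were read from a list of 8, of which 3 passed the filter. Tsku (tsukushi), a secreted SLRP that binds BMP and Wnt pathway proteins, had a log2 fold change of 1.23 (SE 0.064, adjusted p = 7.1e-10, edgeR), past a line of 1 that 4.66% of the genes tested passed upward. Its level went from 57.3 ± 3.48 to 135 ± 13.1 CPM (SD, n = 4 per group). It thus moved against the 7 members that fell. Ecm2 and Epyc were not called.

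The enzymes that build the chains of these proteoglycans moved in both directions. Of 6 enzymes for the linker to the core protein, 4 were higher and 0 lower (edgeR, adjusted p under 0.05), where 29.0% of the genes tested were higher. Xylt1, which starts the chain, had a log2 fold change of 0.87. Xylt2, the other xylosyltransferase of the list, was not called, at -0.14 (adjusted p = 0.091, edgeR). Of 16 enzymes for chondroitin and dermatan sulfate, 6 were higher and 7 lower, where 29.0% and 29.9% of the genes tested were. Chst11, a chondroitin 4-O-sulfotransferase, rose by 2.03 (SE 0.043, adjusted p = 1.9e-13, edgeR), from 117 to 475 CPM, and Chsy3, a chondroitin synthase, rose by 1.02. The 3 enzymes specific to dermatan sulfate, named here after their values were seen, were lower. Log2 fold changes were -0.84 and -0.32 for the epimerases Dse and Dsel and -0.98 for the dermatan 4-O-sulfotransferase Chst14. Of 4 tested enzymes for keratan sulfate, 3 were higher and 1 was lower, with Chst1 and B3gnt7 up by 1.90 and 1.29 on the log2 scale. B3gnt7 rested on few reads, 4 to 9 counts in the GFP and 18 to 21 in the OEIRF7 libraries.

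Of 9 proteases that cut SLRPs 6 were higher and 2 lower, where 29.0% and 29.9% of the genes tested were. Without scaling beyond library size 1 was lower. The collagenase Mmp13 went from 1.74 to 60.1 CPM, a log2 fold change of 5.11, and Mmp12 and Mmp3 rose by 1.82 and 1.04. The aggrecanase Adamts5 fell by 1.99, from 518 to 130 CPM. Of 13 receptors and signalling partners 7 were higher and 6 lower. Cd44, Tgfb1 and the Toll-like receptor partner Cd14 rose by 1.44, 1.33 and 1.21, while Bmp4 and Tgfb2 had log2 fold changes of -1.56 and -1.55. The Toll-like receptors Tlr2 and Tlr4, to which biglycan binds, rose by less, 0.74 and 0.51.

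Among the fibrillar collagens, on which SLRPs act, 7 of 10 chains tested were lower and 2 higher, where 29.9% and 29.0% of the genes tested were. Among the chains with over 100 FPKM in the GFP libraries, Col1a1 fell by 0.16 on the log2 scale and Col1a2 had a log2 fold change of -0.05 (adjusted p = 0.10, edgeR). Log2 fold changes of Col5a2, Col3a1, Col5a1 and Col11a1 were -0.51, -0.53, -0.55 and -0.73. Col5a3 rose by 1.71 and Col2a1 fell by 1.20, both at low or modest level. Of 18 other proteoglycans tested, 8 were higher and 7 lower. Versican (Vcan) rose by 0.95 on the log2 scale and Cspg4 rose from 22.4 to 63.3 CPM. Gpc4, Gpc3 and Acan had log2 fold changes of -1.18, -1.73 and -1.75. Over these lists the median log2 fold change ranged from -0.41 for the collagens to 0.97 for the keratan sulfate enzymes.

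**Figure D4:**
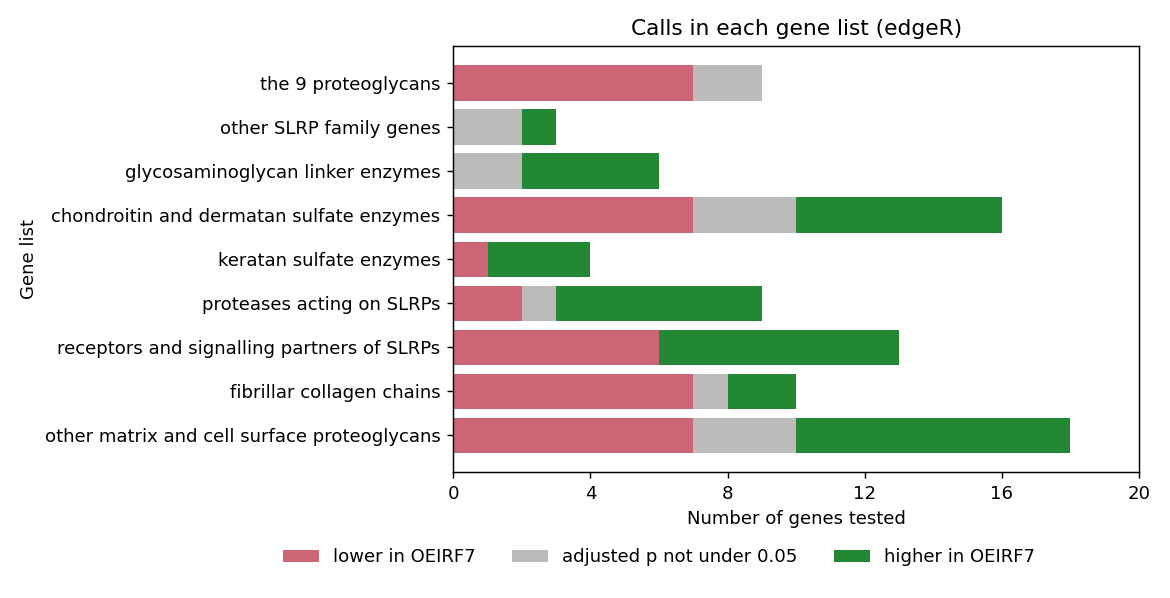
Number of genes tested (x axis) in each gene list (y axis) that were lower (red), higher (green) or not past an adjusted p of 0.05 (grey) in OEIRF7 against GFP libraries, 4 per group (edgeR). The 9 SLRPs hold 7 lower and 0 higher genes, while the 16 chondroitin and dermatan sulfate enzymes hold 7 lower and 6 higher. Among all 13533 genes tested, 29.9% were lower and 29.0% higher.

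Markers of other cell types moved with the groups in part. The 7 markers of chondrocytes and tendon cells, which also make Fmod and Prelp, summed to 102 to 104 CPM in the GFP libraries and 52.0 to 63.8 in the OEIRF7 libraries. All 5 that were tested were lower. Among all genes tested 29.9% were lower and 29.0% higher. Most of this sum was Sox9, which went from 81.3 to 48.0 CPM, a log2 fold change of -0.76. The others had means of 10.9 CPM or less in the GFP libraries. Their log2 fold changes were -1.46 for Scx, -1.75 for Acan and -1.20 for Comp and Col2a1. Matn1 and Tnmd had at most 1 and 12 counts. The 6 mural cell markers summed to 45.8 to 53.7 CPM in GFP and 20.7 to 27.2 in OEIRF7 libraries, with 2 higher and 2 lower. Most of this sum was Notch3, which went from 41.4 to 13.6 CPM, a log2 fold change of -1.61, while Des and Rgs5 rose by 1.08 and 0.73. The 6 epicardial and mesothelial markers summed to 151 to 159 and 105 to 119 CPM, also with 2 higher and 2 lower. Upk3b and Lrrn4 had log2 fold changes of -1.32 and -0.70, and Krt19 and Msln rose by 1.96 and 0.19. The 8 myofibroblast markers summed to 24641 to 26149 and 20483 to 22531 CPM, with 7 lower and 1 higher. Acta2, Cnn1 and Cthrc1 had log2 fold changes of -1.83, -1.30 and -1.15. The part of these in the changes of the SLRPs was not tested.

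Endothelial and macrophage markers summed to 203 to 216 and 252 to 301 CPM in the GFP libraries, and to 206 to 231 and 306 to 340 CPM in the OEIRF7 libraries. In each of these lists 3 of 6 tested were higher and 1 lower, where 29.0% and 29.9% of all genes tested were. Most of the macrophage sum was Lyz2, at 202 and 235 CPM, while Cx3cr1 went from 2.54 to 0.691 CPM, a log2 fold change of -1.86 (adjusted p = 4.7e-06, edgeR). Cdh5, the lower endothelial marker, was at -0.11. The 7 fibroblast markers summed to 11190 to 11708 and 10870 to 11800 CPM, which overlap, although Tcf21 within this list fell by 1.33 on the log2 scale. The 4 Schwann cell markers summed to 19.8 to 22.7 CPM in the OEIRF7 libraries, within the range of the GFP libraries, and 0 of 3 tested passed (edgeR). The 8 cardiomyocyte markers summed to 9.95 to 13.7 and 7.50 to 9.73 CPM, nearly all of it Tnnt2.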

How the data were processed

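RNA of primary murine cardiac fibroblasts was sequenced in 8 libraries, 4 labelled GFP and 4 labelled OEIRF7. After trimming (Trimmomatic) and alignment to GRCm38 (HISAT2), the authors deposited raw counts per gene from HTSeq-count. They also deposited FPKM per library from Cufflinks, normalized for transcript length and depth. The strand setting of the counting is not given in the sources used here, and the labels and the paper name different library kits. Columns of group means, fold changes, p-values and FDR hold the authors' own comparison and were not used. Of 22274 identifiers, 22219 matched GENCODE M21, and 121 symbols altered in the table were restored by identifier.

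The test on counts was that of edgeR 4.0.16 in R 4.3.3 (filterByExpr, TMM, glmQLFit and glmQLFTest without covariates, Benjamini-Hochberg over 13533 genes). SE is the log2 fold change divided by the root of F. TMM factors were 0.989 to 1.01. CPM used TMM-scaled library sizes, and log2 CPM a prior count of 2. Precision is limited for genes near 1 CPM. Alternatives were DESeq2 1.42.0, limma 3.58.1 on log2(FPKM + 1) and log2(FPKM + 0.1), other scalings and filters, the replicate number as a block and leaving out each library. The test was checked on simulated data with 200 genes changed, as many up as down, and the same dispersion for all genes. In the data themselves 7969 genes were called, so this check does not give the error rate here.

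The members and gene lists were chosen with earlier results of these data known. Named genes are the members, Irf7 and the list genes called with a log2 fold change past 1; other list genes were named after their values were seen. Protein sequences were not used here.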

Additional observations from a re-analysis of the deposited data

Results flagged for a closer look

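Of 34 groups of 4 values examined over the members, Irf7 and the pair ratios, 1 had a library far from the others. Ogn had 85.3 CPM in OEIRF7 replicate 3, against 77.0 to 78.2 in the other OEIRF7 libraries, a gap of 0.857 of the range of the group, past Dixon's 95% critical value for 4 samples. Chance alone gives about 1 in 20 such groups. The value remained far below the controls.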

How the results depend on the processing

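Of the 9 members, Bgn, Fmod, Ogn, Prelp and Podn kept their direction and an adjusted p under 0.05 in all 17 alternatives. Between 5 and 7 members were lower when 1 library was left out, and 0 were higher. Dcn, not past the threshold in any alternative, changed sign to 0.0060 without scaling beyond library size and to 0.0062 with limma on log2(FPKM + 1), with or without the filter, and log2(FPKM + 0.1), and ranged from -0.047 to 0.0094 with 1 library left out. Lum was not past the threshold with limma, at -0.25 on log2(FPKM + 1), with or without the filter, and -0.30 on log2(FPKM + 0.1), and ranged from -0.44 to -0.21 with 1 library left out. Omd, at -0.30 on log2(FPKM + 1), ranged from -0.69 to -0.49 and Aspn from -0.14 to -0.049 in the same way. With the replicate block Aspn passed, at -0.095 (adjusted p = 0.036, edgeR), and 8211 genes were called in place of 7969. The block lowered the SE of each member but Omd, where it went from 0.20 to 0.22. For Prelp the SE went from 0.14 to 0.060, for Fmod from 0.11 to 0.073 and for Lum from 0.13 to 0.083. The SEs given above are those without the block. The replicate numbers were not treated as pairs: deviations of same-numbered libraries correlated across genes at 0.079 to 0.14, not all above 0.1, although each library correlated best with its own number. With FPKM in place of CPM, the pair differences of Dcn to Bgn, Lum to Fmod, Ogn to Omd, Ogn to Aspn and Fmod to Prelp were 0.26, 1.78, -0.69, -1.17 and -0.26 and not past the threshold. Except for Ogn to Omd, this came from the Benjamini-Hochberg adjustment, as described for the pairs. With the replicate block these differences were 0.26, 1.78, -0.69, -1.17 and -0.27, and the exact sign-flip test over 4 pairs of libraries cannot go below p = 0.12, so it says nothing about their stability. Among the other SLRP genes 1 was lower with the replicate block, and of the proteases 1 was lower without scaling beyond library size. Apart from the adjustment of the pair ratios, the cause of these changes was not tested. Depth limits Omd and Podn, at 14 to 83 counts per library.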

Other observations

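Within the groups, several SLRPs were low in the same libraries. GFP replicate 3 had the lowest log2 CPM of its group in 5 of the 9 members, Dcn, Lum, Fmod, Prelp and Podn. OEIRF7 replicate 3 had the lowest in 7 of the 9, the same 5 together with Bgn and Omd. For Prelp these libraries lay 0.35 and 0.26 below the mean of their group on the log2 scale, and for Podn 0.40 and 0.36. Ogn and Aspn went the other way in OEIRF7 replicate 3, which was the highest of its group in both. GFP replicate 2 was the highest control in Dcn, Lum, Fmod, Omd and Prelp and the lowest in Bgn, Ogn and Aspn. The share of all genes tested in which each library was lowest was not counted. Across the whole table, OEIRF7 replicate 3 also differed most from the other libraries of its group. Chi-square per degree of freedom between its counts and theirs was 7.06, 9.94 and 9.36, against 2.91, 3.62 and 4.55 among the other OEIRF7 libraries. The labels do not say whether libraries of the same number share a culture.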
